A study of Mus musculus with 6 samples.

Results

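Matricellular proteins are secreted proteins that sit in the extracellular matrix without bearing its mechanical load; they bind cell surface receptors, growth factors, proteases and collagen, and so tune how a cell reads its surroundings. They are made in large amounts in the embryo and in healing wounds, and fibroblasts are a main source. The genes described here encode periostin (Postn), tenascin-C (Tnc), ABI family member 3 binding protein (Abi3bp), thrombospondin-2 (Thbs2), osteonectin (Sparc) and 5 members of the CCN family, Ctgf, Cyr61, Nov, Wisp1 and Wisp2, which later annotation calls Ccn2, Ccn1, Ccn3, Ccn4 and Ccn5. They were taken by gene name, and each matched 1 locus that carried no other name, so the group holds 10 of the 39495 loci in the files. The genes were chosen by family with their KO and WT values in these libraries known, so the values that set the genotypes apart are a description, and the counts of calls given further on support nothing about the group. Thbs1, the gene of thrombospondin-1, was left out for the reason given below.

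RNA came from embryonic fibroblasts of the mouse, which are cultured straight from embryonic tissue, either without a working copy of Stc1 (STC1-/- KO, 3 libraries) or with both copies intact (STC1+/+ WT, 3 libraries). Stc1 encodes stanniocalcin-1, a secreted glycoprotein. Both genotypes are on the C57BL/6 background, and all cells were grown in DMEM with 10% fetal calf serum and antibiotics. Polyadenylated RNA was sequenced with a stranded kit, and the libraries held 21882092, 37934030 and 44552311 estimated fragments in KO replicates 1 to 3 and 71488701, 42509592 and 51153221 in WT replicates 1 to 3. The labels state no embryonic age, nor do they say that replicates stem from different embryos or cultures, so any p-value measures only the spread between these libraries. Replicate numbers follow the order of deposit, only name a library and pair none across genotypes.

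Stc1 itself had 6, 0 and 0 fragments in KO replicates 1 to 3, against 2245, 291 and 368 in WT replicates 1 to 3. Fibroblast markers summed to between 6046 and 9731 CPM in KO and between 11742 and 31591 CPM in WT libraries, where CPM are fragments scaled to a common effective library size, with the scaling factors of edgeR's TMM method. Collagen genes Col1a1, Col1a2 and Col3a1 carried much of that difference. The other 8 fibroblast markers summed to 4649, 5614 and 4624 CPM in KO replicates 1 to 3 and to 5975, 6271 and 5002 CPM in WT replicates 1 to 3, so the genotypes overlapped, and of all 11 markers 7 had a negative and 4 a positive log2 fold change. Macrophage markers summed to 1485, 498 and 545 CPM in KO replicates 1 to 3 and to 403, 1642 and 12182 CPM in WT replicates 1 to 3. A usable locus was found for 11 of 12 fibroblast and 15 of 17 macrophage markers, and none of these was at 0 in any library. Smooth muscle and pericyte markers summed to between 2755 and 4215 CPM in KO and between 3794 and 9652 CPM in WT libraries, and epithelial markers to at most 31.7 CPM in KO and 33.0 CPM in WT libraries. In such bulk RNA, fewer cells of a type and less RNA per cell cannot be told apart.

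All 10 genes are protein-coding in the GENCODE M21 annotation, and they lie on 8 chromosomes in the mm10 coordinates of the files. Postn spans chromosome 3 from 54361109 to 54391041 on the plus strand, and Cyr61 the same chromosome from 145646971 to 145649985 on the minus strand. Nov (54745435 to 54756659) and Wisp1 (66889993 to 66923209) both lie on the plus strand of chromosome 15, 12.1 Mb apart. Abi3bp lies on chromosome 16 (56477834 to 56691168, plus strand), Thbs2 on chromosome 17 (14665500 to 14694262, minus strand) and Tnc on chromosome 4 (63959781 to 64047364, minus strand). Ctgf lies on chromosome 10 (24595442 to 24598683, plus strand), Wisp2 on chromosome 2 (163820861 to 163833171, plus strand) and Sparc on chromosome 11 (55394500 to 55420080, minus strand).

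RefSeq promoter windows on GRCm38.p6, the assembly behind mm10, were at hand for 5 of the 10 genes, Postn, Tnc, Thbs2, Cyr61 and Sparc, with more than 1 window for Postn and Tnc, 7 in all; Abi3bp, Ctgf, Nov, Wisp1 and Wisp2 were not matched. A window holds 250 bases before the start site and 50 after it. The 250 bases before the start are printed here for Postn, which differed most between the genotypes among these 5, for Cyr61, whose genotypes overlapped, and for Sparc, the gene with the highest level per transcript length. They are read 5′ to 3′ on the strand of the gene, and capitals mark matches to the motifs named after them. The windows are chr3:54360857-54361106 for Postn, chr3:145649986-145650235 for Cyr61 and chr11:55420081-55420330 for Sparc.
Postn: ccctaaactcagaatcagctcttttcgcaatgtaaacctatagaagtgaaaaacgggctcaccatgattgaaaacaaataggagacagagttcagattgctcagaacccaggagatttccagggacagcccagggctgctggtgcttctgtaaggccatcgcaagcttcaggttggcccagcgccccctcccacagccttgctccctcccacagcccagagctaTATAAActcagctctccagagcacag
Cyr61: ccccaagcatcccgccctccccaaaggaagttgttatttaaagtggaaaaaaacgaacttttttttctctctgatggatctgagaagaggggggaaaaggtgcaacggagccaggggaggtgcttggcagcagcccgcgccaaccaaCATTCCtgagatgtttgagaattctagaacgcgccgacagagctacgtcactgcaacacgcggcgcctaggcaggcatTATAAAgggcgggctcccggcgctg
Sparc: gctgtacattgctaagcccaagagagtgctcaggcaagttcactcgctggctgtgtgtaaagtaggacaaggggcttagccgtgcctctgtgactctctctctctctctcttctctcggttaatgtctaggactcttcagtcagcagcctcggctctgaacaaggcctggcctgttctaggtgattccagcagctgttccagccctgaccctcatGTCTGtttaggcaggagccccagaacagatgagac

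The letters TATAAA, those of the TATA box, begin 26 bases before the Postn start and 25 bases before the Cyr61 start. On either strand they were found in 5 of the 7 member windows, from 4 genes, and in 13.6% of all 32851 windows of the table. In Thbs2 they lay farther off, 126 bases before the start on the opposite strand. In Tnc they lay 126 or 205 bases before the start, by window, and its windows held 1 and the same match. Sparc had none. The TEAD motif GGAATG, read by the partners of the coactivator YAP, was found in 1 of the 7 windows, in Cyr61 103 bases before the start, on the strand opposite the gene, so that the printed strand reads CATTCC, and in 14.7% of all windows. The short SMAD motif CAGAC was found in 6 of the 7 windows and in 49.6% of all; in Sparc it lies on the opposite strand 35 bases before the start, printed as GTCTG. Neither the AP-1 motif TGANTCA (7.81% of all windows) nor a CArG box, the site of serum response factor (1.63% of all), was found in the 7. The Tnc windows overlap each other, and a match to letters is a description of the sequence, not evidence of binding.

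Levels per transcript length spanned more than 3 orders of magnitude within the group. By median FPKM, fragments scaled to transcript length and library size, over the 6 libraries, Sparc came first at 851, followed by Tnc at 645, Ctgf at 363, Cyr61 at 342, Postn at 340.1 and Thbs2 at 288. Wisp2 at 40.4, Wisp1 at 28.2 and Nov at 16.2 FPKM formed a lower tier, and Abi3bp came last at 0.755 FPKM. Of the 9 neighbouring pairs in this order, only Thbs2 over Wisp2 and Nov over Abi3bp held in all 6 libraries; the others changed places in at least 2 libraries. The order also differed by genotype, since the median of Postn was 98.2 FPKM in KO and 421 FPKM in WT libraries, while that of Thbs2 was 307 and 268 FPKM. Together the 10 genes made up 1.09%, 1.90% and 0.730% of the effective library size in KO replicates 1 to 3, and 1.89%, 2.04% and 0.835% in WT replicates 1 to 3.

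**Figure D1:**
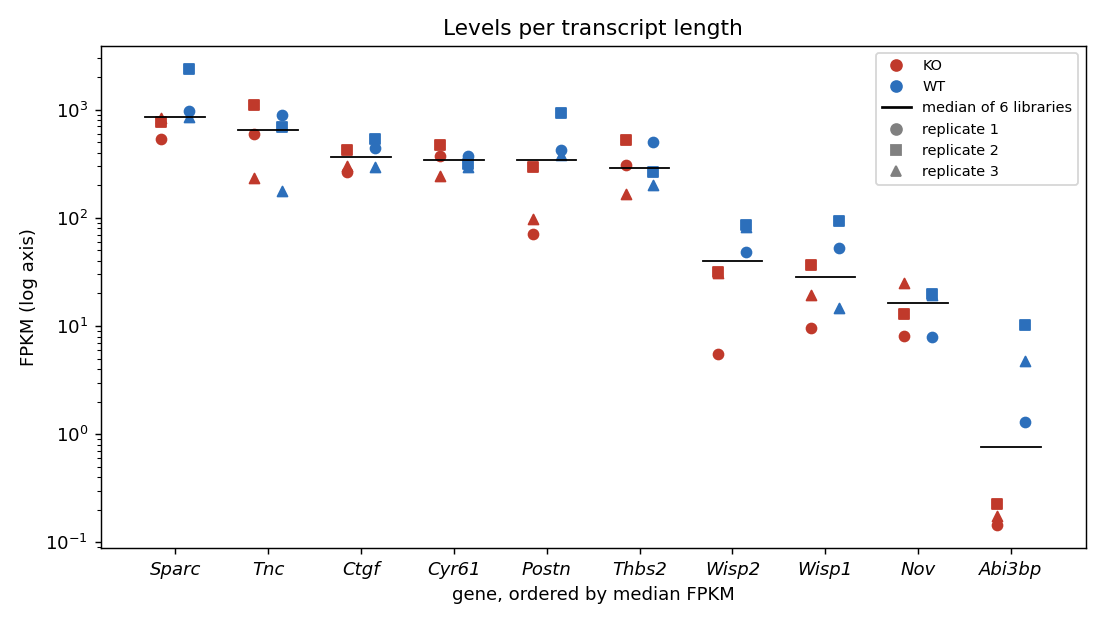
FPKM of each gene on a log axis, with KO libraries left of WT libraries and a line at the median of all 6. The medians run from 851 FPKM for Sparc to 0.755 FPKM for Abi3bp, and the KO and WT points of Abi3bp, Postn, Wisp2 and Sparc are separated. The gap is narrow for Sparc, from 845 FPKM in KO replicate 3 to 856 FPKM in WT replicate 3.

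For Abi3bp, Postn, Sparc and Wisp2, every KO library held less of the transcript than any WT library, while Tnc, Thbs2, Ctgf, Cyr61, Nov and Wisp1 overlapped between the genotypes. Abi3bp, which encodes a secreted protein with fibronectin type III repeats, stood at 0.752, 1.13 and 0.754 CPM in KO replicates 1 to 3, against 5.32, 57.0 and 24.5 CPM in WT replicates 1 to 3. Every KO library was below every WT library, and the lowest WT value was 4.73 times the highest KO value. These KO values rest on 16, 42 and 34 fragments, and the exact 95% Poisson interval of the lowest, 0.430 to 1.22 CPM, covers counting error only. The means were 0.877 ± 0.216 CPM in KO and 28.9 ± 26.1 CPM in WT cells (SD, n = 3 each), and the log2 fold change was -5.03 ± 0.93 (SE). The WT libraries differed among themselves by 10.7-fold, and the log2 fold change was -4.06 without WT replicate 2 and -5.53 without WT replicate 1. On the log2(FPKM + pseudocount) scale, which understates the change of low genes, limma gave -2.16 with a pseudocount of 1 and -3.88 with 0.1.

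Postn encodes periostin, which binds collagen I, fibronectin and tenascin-C and assists the enzymes that crosslink collagen. It stood at 258, 1080.05 and 355 CPM in KO replicates 1 to 3, against 1619, 3390.25 and 1401 CPM in WT replicates 1 to 3. The genotypes did not overlap, though KO replicate 2 came within 1.30-fold of WT replicate 3. The means were 565 ± 449 CPM in KO and 2137 ± 1091 CPM in WT cells (SD, n = 3 each), and the log2 fold change was -1.92 ± 0.66 (SE). It was -2.80 without KO replicate 2 and -1.41 without WT replicate 2. The authors' deposited table gives Postn 154 FPKM in KO and 580.5 FPKM in WT cells, with a log2 fold change of -1.91 and a q-value of 1.

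Sparc, whose product binds collagen and calcium and takes part in collagen fibril assembly, stood at 1379, 1938 and 2105 CPM in KO replicates 1 to 3, against 2571, 6060.3 and 2160.3 CPM in WT replicates 1 to 3. The genotypes did not overlap, but KO replicate 3 and WT replicate 3 were within 1.03-fold of each other, and WT replicate 2 stood apart from all other libraries. The log2 fold change was -0.99 ± 0.45 (SE), and it was -0.37 without WT replicate 2. Sparc means were 1807 ± 380.3 CPM in KO and 3597 ± 2143 CPM in WT cells (SD, n = 3 each). In FPKM, Sparc stood at 7.65, 2.61 and 8.61 times Postn in KO replicates 1 to 3, against 2.31, 2.59 and 2.22 times in WT replicates 1 to 3. All 3 KO ratios lay above the WT ratios, that of KO replicate 2 by little.

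Tnc and Thbs2 showed no such separation. Tenascin-C is a large glycoprotein of developing and injured connective tissue that loosens cell adhesion, and Tnc stood at 5201, 9548 and 1986 CPM in KO replicates 1 to 3, against 8130.5, 5851 and 1447 CPM in WT replicates 1 to 3. Thrombospondin-2 binds the receptors CD36, CD47 and LRP1 and is needed for normal collagen fibrils in mice, and Thbs2 stood at 2262, 3840.1 and 1184 CPM in KO replicates 1 to 3, against 3873, 1956 and 1469 CPM in WT replicates 1 to 3. For both genes, KO replicate 2 and WT replicate 1 held the highest values and the third replicate of each genotype the lowest, so the libraries of a genotype differed by 2.64-fold to 5.62-fold while the genotypes overlapped. The log2 fold changes were 0.12 ± 0.78 (SE) for Tnc and -0.002 ± 0.55 (SE) for Thbs2. With 1 library left out they ran from -0.52 to 0.60 for Tnc and from -0.49 to 0.50 for Thbs2, and the 6-library value for Thbs2 was positive with DESeq2 and with RLE scaling.

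**Figure D2:**
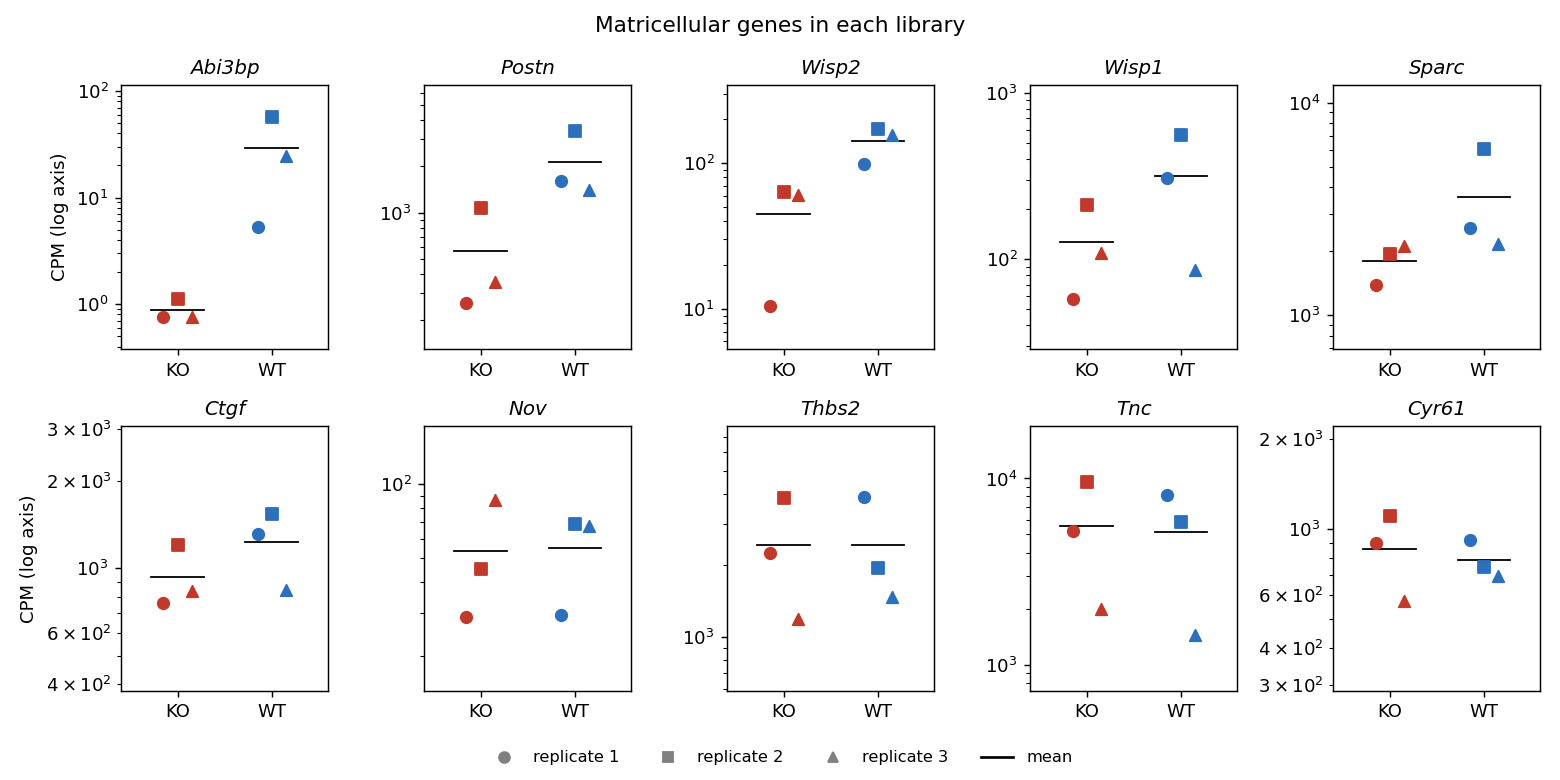
CPM of each gene in the 3 KO libraries (left) and 3 WT libraries (right) on a log axis, with a line at the mean and a marker shape per replicate number, which pairs nothing. KO and WT points are separated for Abi3bp, Postn, Wisp2 and Sparc and overlap for the other 6 genes. The gap is narrow for Sparc, from 2105 CPM in KO replicate 3 to 2160.3 CPM in WT replicate 3.

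The CCN family shares a modular build, and its members bind integrins and heparan sulfate. Ctgf and Cyr61 are textbook targets of the coactivator YAP and of serum response factor, and they were the members that varied least. Ctgf stood at 761, 1202 and 838 CPM in KO replicates 1 to 3, against 1312, 1536 and 843 CPM in WT replicates 1 to 3. Cyr61 stood at 897, 1107 and 573 CPM in KO replicates 1 to 3, against 917, 743 and 695 CPM in WT replicates 1 to 3. The genotypes overlapped for both. The log2 fold change was -0.40 ± 0.30 (SE) for Ctgf and 0.13 ± 0.28 (SE) for Cyr61, and that of Cyr61 was -0.09 without KO replicate 2. The ratio of Ctgf to Cyr61 in FPKM was 0.709, 0.907 and 1.22 in KO replicates 1 to 3 and 1.20, 1.73 and 1.01 in WT replicates 1 to 3, so it overlapped between the genotypes as well. The authors' deposited table gives a q-value of 1 for Ctgf, Cyr61 and Thbs2, with log2 fold changes of -0.37, 0.16 and 0.03.

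Wisp2 encodes the CCN protein that lacks the C-terminal cystine knot domain of the rest of the family. It stood at 10.6, 63.1 and 60.8 CPM in KO replicates 1 to 3, against 98.9, 172 and 156 CPM in WT replicates 1 to 3, and every KO library was below every WT library. Means of 44.8 ± 29.7 CPM in KO and 142 ± 38.5 CPM in WT cells (SD, n = 3 each) corresponded to a fitted log2 fold change of -1.66 ± 0.66 (SE). KO replicate 1 was far below the other KO libraries, and without it the value was -1.20. In the authors' deposited table Wisp2 has 22.6 FPKM in KO and 72.1 FPKM in WT cells, a p-value of 0.0387 and a q-value of 1.

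Wisp1, found as a target of Wnt-1 signalling, stood at 57.4, 211 and 109 CPM in KO replicates 1 to 3, against 308, 556 and 85.7 CPM in WT replicates 1 to 3. WT replicate 3 lay within the range of the KO libraries. Its log2 fold change of -1.33 ± 0.76 (SE) was -0.64 without WT replicate 2 and -1.93 without KO replicate 2. Nov, whose product binds integrins and the receptor Notch1, stood at 29.0, 45.1 and 86.1 CPM in KO replicates 1 to 3, against 29.3, 69.0 and 67.5 CPM in WT replicates 1 to 3. The lowest libraries of the genotypes were nearly level for Nov, and its log2 fold change of -0.05 ± 0.50 (SE) ran from -0.57 without KO replicate 3 to 0.25 without KO replicate 1.

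**Figure D3:**
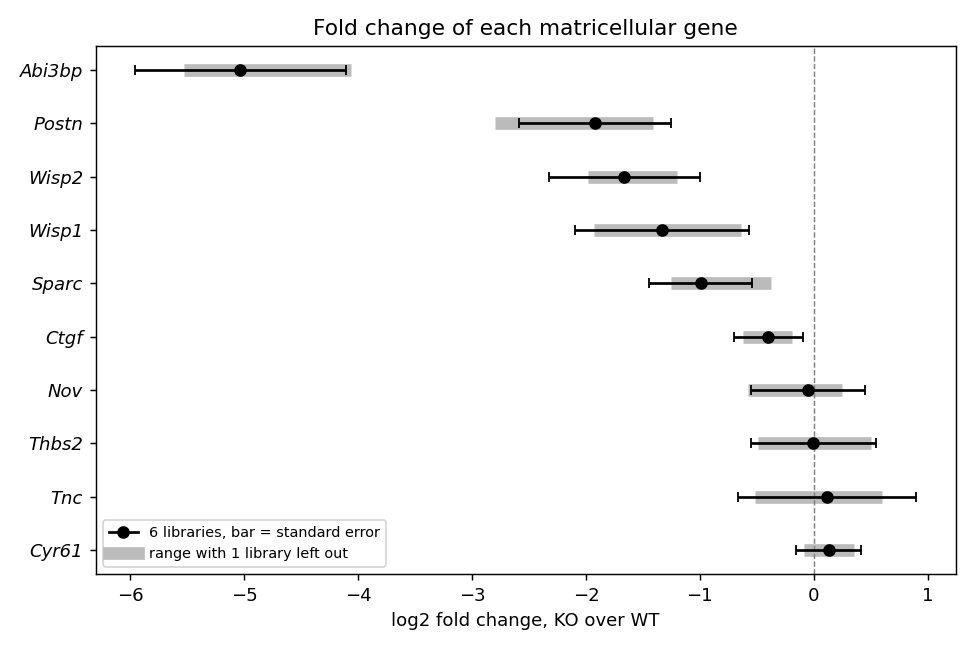
The log2 fold change of KO over WT for each gene in edgeR, with its standard error (black bar) and the range when 1 library was left out (grey). Abi3bp, Postn, Wisp2, Wisp1, Sparc and Ctgf stay below 0 in every such fit, and Nov, Thbs2, Tnc and Cyr61 lie on both sides of 0.

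Over the group, 8 of the 10 log2 fold changes were negative, where 55.6% of the 15673 loci tested had a negative value, and the median was -0.70 against -0.05 for all loci tested. Without WT replicate 2 the median was -0.28. Every KO library was below every WT library for 4 genes, and the same held for 5.44% of all loci tested. Every KO library was above every WT library for 0 genes of the group and for 5.18% of all loci tested. edgeR's quasi-likelihood test called 0% of the loci higher and 0% lower in KO cells at a Benjamini-Hochberg adjusted p under 0.05, and none of the 10 genes; 3 of them had an unadjusted p under 0.05, as had 251 higher and 356 lower loci in all (1613 and 1326 without WT replicate 1). DESeq2 called 0.153% of the loci with an adjusted p higher and 0.169% lower, among them 1 gene of the group, Abi3bp. Since the group was chosen with this contrast known, nothing is read from these counts.

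The libraries differed in ways that cut across genotype, as the plot of deviations from each gene's mean shows. WT replicate 2 held the highest value of all 6 libraries for Abi3bp, Postn, Wisp2, Wisp1, Sparc and Ctgf, 6 of the 10 genes. KO replicate 1, also the shallowest library, held the lowest value for 7 genes, and KO replicate 2 was the highest KO library for 8. WT replicate 2 also had the highest sum of fibroblast markers, 31591 CPM, and of smooth muscle and pericyte markers, 9652 CPM, and the 3 collagen genes made up 25321 CPM of its fibroblast sum. Tendon markers, all 6 of them tested, summed to between 1194 and 2238 CPM in KO and between 1224 and 2469 CPM in WT libraries. Col12a1 made up most of each sum, at between 1175 and 2217 CPM in KO and between 1187 and 2373.5 CPM in WT libraries. Of the 6 markers, 5 had a negative log2 fold change (median -2.29), and DESeq2 called Tnmd, Fmod and Thbs4 while edgeR called 0. Tnmd, the tenomodulin gene, named here after its values were seen, stood at 0.141, 0.322 and 0.177 CPM in KO replicates 1 to 3, against 0.566, 90.4 and 7.88 CPM in WT replicates 1 to 3. Fmod, the gene of the collagen-binding proteoglycan fibromodulin and likewise named after its values were seen, stood at 3.38, 1.85 and 2.48 CPM in KO replicates 1 to 3, against 5.28, 126 and 17.7 CPM in WT replicates 1 to 3. Neither overlapped between the genotypes, and in both, as in Abi3bp, WT replicate 2 was the highest library and WT replicate 1 the lowest of its genotype. The KO values of Tnmd rest on few fragments, and nothing is read from this likeness. Thbs4 had the same order of WT libraries and a log2 fold change of -6.44, but its genotypes overlapped. Mkx, Scx and Col12a1 did not follow Tnmd and Fmod. Mkx had a positive log2 fold change of 1.03, Scx one of -0.31 and Col12a1 one of -0.24, and each of these overlapped between the genotypes. Without WT replicate 2 the median of the tendon list was -1.13. The part of the fibroblast, smooth muscle and tendon markers in the values of the group was not tested. Macrophage markers were highest in WT replicate 3, WT replicate 2 and KO replicate 1. Without these 3 libraries, which leaves KO replicates 2 and 3 against WT replicate 1, assumed to vary like the KO libraries, the log2 fold change was -2.50 for Abi3bp, -1.17 for Postn, -0.67 for Wisp2, -0.95 for Wisp1 and -0.35 for Sparc, and it was 1.16 for Nov. In that fit 9 of the 10 values were negative, as were 48.0% of all loci, and the median of the group was -0.56.

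**Figure D4:**
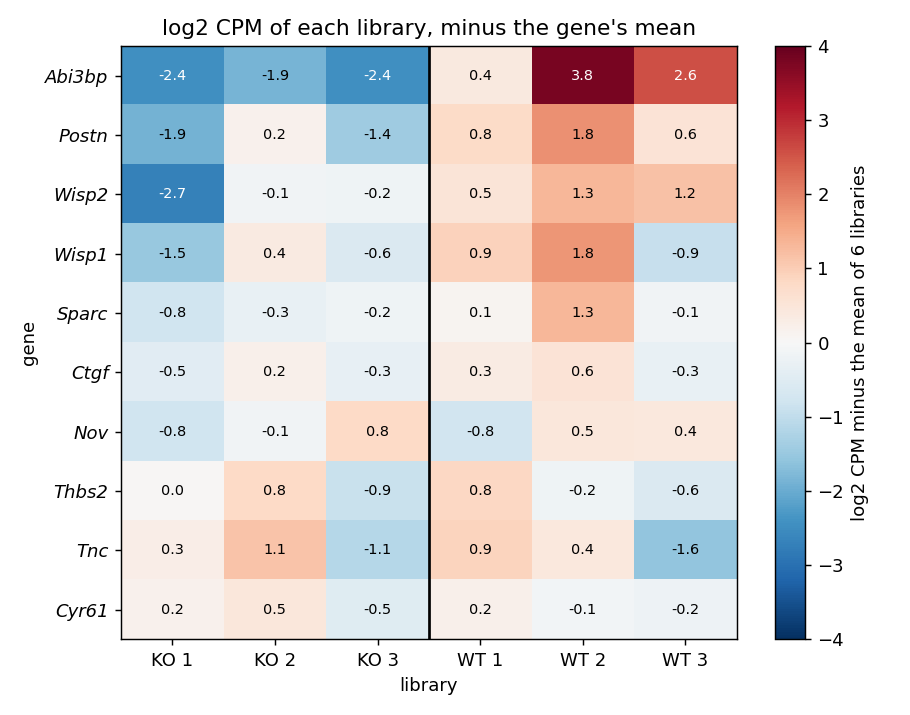
Heat map of log2 CPM in each library minus the mean of the gene over all 6 libraries, with KO libraries left of WT libraries. WT replicate 2 reaches 3.80 for Abi3bp and 1.83 for Postn, KO replicate 1 reaches -2.71 for Wisp2, and Tnc and Thbs2 share their high libraries (KO replicate 2 and WT replicate 1).

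Thbs1, the best known thrombospondin gene, had FPKM of 1054, 1438 and 898 in KO replicates 1 to 3, above Sparc in each of them. All 3 WT libraries carry the mark HIDATA for this locus, with a deposited value of 0 that is not a measurement, so the genotypes cannot be compared for it. Fn1, the fibronectin gene, carries the same mark in all 6 libraries.

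Other matricellular genes outside the group had values in both directions. Of 16 on a list of such genes, 14 were tested, 8 with a negative and 6 with a positive log2 fold change (median -0.40); edgeR called 0 of them, DESeq2 called 1, Thbs4, and 2 had an unadjusted p under 0.05. Thbs4, a thrombospondin of tendon and muscle, stood at 0.282, 0.134 and 0.044 CPM in KO replicates 1 to 3, against 0.113, 34.0 and 3.12 CPM in WT replicates 1 to 3, so the genotypes overlapped through WT replicate 1 (edgeR adjusted p = 0.763). Tgfbi, which encodes a fasciclin domain protein related to periostin, stood at 34.0 ± 18.0 CPM in KO and 160.5 ± 158 CPM in WT cells (SD, n = 3 each; edgeR adjusted p = 0.763). Spock3, a testican proteoglycan gene, stood at 0.818 ± 0.322 CPM in KO and 5.30 ± 7.58 CPM in WT cells (SD, n = 3 each; edgeR adjusted p = 0.763). Both overlapped between the genotypes through WT replicate 1, at 27.0 CPM for Tgfbi and 0.340 CPM for Spock3. The highest Tgfbi value, 334 CPM, was in WT replicate 3, and the highest Spock3 value, 14.0 CPM, in WT replicate 2. Without WT replicate 2 the median of this list was 0.17, with 5 of 14 values negative.

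Genes of the receptors that bind these proteins showed little net difference. Of 22, 21 were tested, 12 with a negative and 9 with a positive log2 fold change (median -0.05), and edgeR and DESeq2 called 0; 1 had an unadjusted p under 0.05. Itga9, an integrin subunit that binds tenascin-C, stood at 15.9 ± 1.17 CPM in KO and 29.5 ± 13.8 CPM in WT cells (SD, n = 3 each), with every KO library below every WT library and an edgeR adjusted p = 0.763. Vldlr, a lipoprotein receptor gene, stood at 90.8 ± 20.9 CPM in KO and 60.2 ± 13.9 CPM in WT cells (SD, n = 3 each), with every KO library above every WT library and an edgeR adjusted p = 0.763. Itga2, which encodes a collagen-binding integrin subunit, stood at 14.7 ± 3.78 CPM in KO and 7.13 ± 4.59 CPM in WT cells (SD, n = 3 each; edgeR adjusted p = 0.763). Of the regulators and targets of YAP with TEAD and of serum response factor with its coactivators, 21 of 22 were tested, 11 with a negative and 10 with a positive log2 fold change (median -0.02); edgeR and DESeq2 called 0, and 1 had an unadjusted p under 0.05. That gene was Cnn1, which encodes calponin of contractile cells, at 43.1, 41.8 and 52.6 CPM in KO replicates 1 to 3, against 74.9, 303 and 73.7 CPM in WT replicates 1 to 3 (edgeR adjusted p = 0.763). Vcl, the vinculin gene, stood at 533 ± 63.9 CPM in KO and 784 ± 284 CPM in WT cells, and Acta2, smooth muscle actin, at 2000.06 ± 514 CPM in KO and 3493 ± 1889 CPM in WT cells (SD, n = 3 each; edgeR adjusted p = 0.763 for both). Itga2, Vcl and Acta2 overlapped between the genotypes. The median of the YAP and serum response factor list was -0.25 without WT replicate 3 and 0.08 without WT replicate 2. It pools genes of both directions. Srf, Vcl, Acta2, Tagln, Myl9, Fhl2 and Cnn1 were negative, from -0.25 for Srf to -1.72 for Cnn1. Tead3, Lats1, Amotl2 and Mkl1 were negative too. Yap1, Wwtr1, Tead1, Tead2, Tead4, Lats2, Amotl1, Ankrd1, Axl and Mkl2 were positive, with Ankrd1 highest at 0.51. The loci of Lats1, Lats2 and Axl also carry other gene names, so their values are not of these genes alone. This split was seen in the values and was not tested.

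TGF-beta induces several genes of the group in fibroblasts. Of its 14 listed ligands, receptors, transducers and targets, all were tested, 11 with a negative and 3 with a positive log2 fold change (median -0.21), and none had an unadjusted p under 0.05; edgeR and DESeq2 called 0. Tgfbr2, the receptor that binds the ligand, stood at 178 ± 9.04 CPM in KO and 258 ± 113 CPM in WT cells (SD, n = 3 each; edgeR adjusted p = 0.763). Tgfbr1, its signalling partner, stood at 68.0 ± 15.4 CPM in KO against 116 ± 71.9 CPM in WT cells, and the ligand gene Tgfb3 at 79.9 ± 46.9 CPM in KO against 187 ± 170.2 CPM in WT cells (SD, n = 3 each; edgeR adjusted p = 0.763 for both). All 3 genes overlapped between the genotypes. WT replicate 1 was below every KO library for Tgfbr2 (165 CPM) and Tgfbr1 (53.9 CPM). WT replicate 3 was the highest library for both, at 383 and 195 CPM. Without KO replicate 3 the median of this list was -0.06, and without WT replicates 2 or 3 it was -0.12 or -0.13.

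The matrix genes whose products these proteins bind had the lowest median of the related gene lists, marker lists of cell types aside. The macrophage and tendon marker lists had lower medians, of -2.77 and -2.29. Of 14, 13 were tested, 11 with a negative and 2 with a positive log2 fold change (median -1.50); edgeR and DESeq2 called 0, though DESeq2 gave Eln no adjusted p, and 3 had an unadjusted p under 0.05. Col1a1, a chain of collagen I, stood at 829, 2080.2 and 2318 CPM in KO replicates 1 to 3, against 3111, 11994 and 3408 CPM in WT replicates 1 to 3, with an edgeR adjusted p = 0.763. Col3a1, the chain of collagen III, stood at 83.7, 197 and 342 CPM in KO replicates 1 to 3, against 144, 3324 and 1385 CPM in WT replicates 1 to 3, so the genotypes overlapped through WT replicate 1 (edgeR adjusted p = 0.763). Eln, the elastin gene, stood at 0.188, 0.268 and 0.688 CPM in KO replicates 1 to 3, against 0.198, 66.7 and 2.26 CPM in WT replicates 1 to 3 (edgeR adjusted p = 0.763). Without WT replicate 2, which held the highest WT value of all 3 genes, the median of the list was -0.41. Without the 3 libraries with the most macrophage markers, the median was -0.21 for the matrix partners, -0.14 for the YAP and serum response factor list, 0.01 for the TGF-beta list, 0.08 for the receptors and 0.62 for the other matricellular genes. The part of those markers in these lists was not tested.

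**Figure D5:**
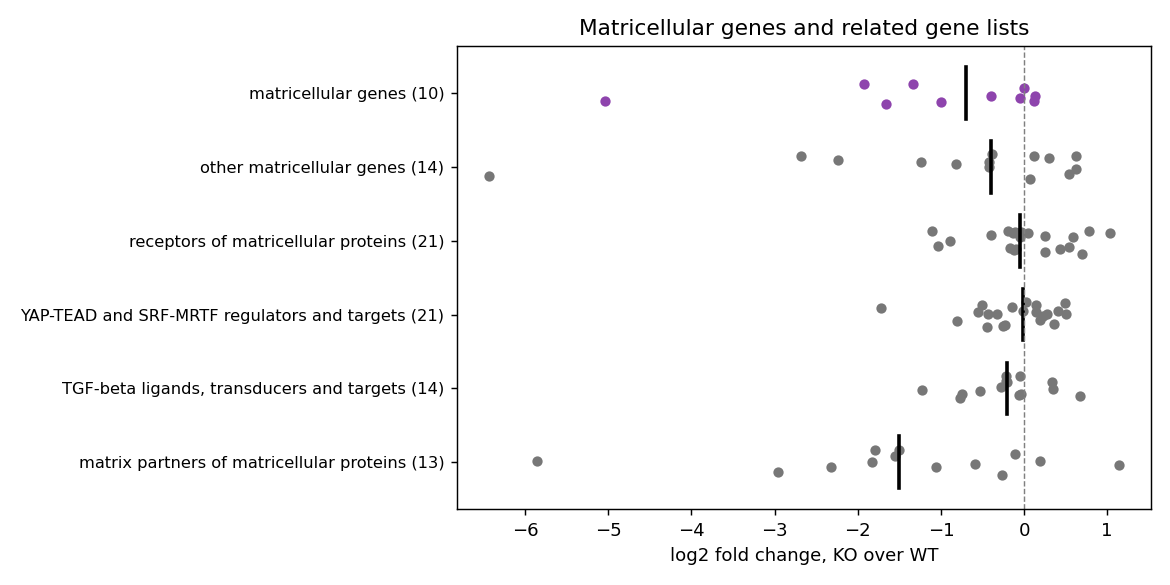
The log2 fold change of KO over WT in edgeR for the matricellular genes (top) and for the tested genes of each related list, with the number tested in brackets and a black line at the median. The medians are -0.70 for the matricellular genes, -1.50 for their matrix partners and between -0.40 and -0.02 for the other lists.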

How the data were processed

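CASAVA 1.8.2, TopHat2 2.0.6, Cuffdiff 2.0.1 and the build mm10 are named, without role or order, per the submitters' processing notes. Per the file headers, the deposited files give an estimated count of fragments and an FPKM for each locus and library. In the authors' deposited comparison table, mean FPKM, log2 fold changes, p-values and q-values are given per gene; 5 of the 10 genes are in it. Between 24.0% and 24.6% of the expected counts above 0 are not whole, and they were rounded.

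Of 39495 loci, 2667 without a gene name (0.507% to 0.555% of fragments) and 16 named loci marked HIDATA in any library were left out. The deposited value is 0 only in the libraries so marked, as for Thbs1. The quasi-likelihood F test of edgeR 4.0.16 (R 4.3.3) was run on the rounded counts after filterByExpr and TMM scaling, with robust dispersion and Benjamini-Hochberg adjustment over 15673 loci. Standard errors are the log2 fold change divided by the square root of F. CPM were taken on the TMM-scaled sizes. Tried as well were DESeq2 1.42.0, limma 3.58.1 on log2(FPKM + 1) and log2(FPKM + 0.1), RLE scaling, no filter on low counts, no loci marked FAIL and leaving out each library; leaving out WT replicates 2 and 3 and KO replicate 1 together was added after seeing the data. No library pair agreed within sampling noise (chi-square per degree of freedom of 48.9 or more).

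The genes and lists were chosen with earlier results of these data known. Named were all 10 genes, Stc1 and, of each related list, the 3 tested genes with the smallest unadjusted p. Thbs1, Fn1, Tnmd, Fmod, Mkx, Scx, Col12a1 and the other YAP and serum response factor list genes were named after their values were seen. Where a symbol of a list had several loci, the one with the highest mean CPM was used. Some list loci carry further gene names, among them those of Lats1, Lats2, Axl, Mkx and some macrophage markers. Their values are of the whole locus.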

Additional observations from a re-analysis of the deposited data

How the results depend on the processing

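The count of 0 loci called higher and 0 called lower in KO cells held in edgeR with RLE scaling, without the filter, without FAIL loci, with any 1 library left out and with the 3 libraries below left out, and in limma on log2(FPKM + 1). DESeq2 called 29 higher and 32 lower, and limma on log2(FPKM + 0.1) called 1 higher and 0 lower; the cause was not tested. With 1 library left out, between 6 and 9 of the 10 genes had a negative log2 fold change, the median of the group ran from -0.93 to -0.28, and between 4 and 6 genes had genotypes that did not overlap, where 15.7% to 38.0% of all loci did not. Without WT replicate 1 that was 4 of the 10 genes against 38.0% of all loci, and without WT replicate 3 it was 6 against 24.7%. Without WT replicates 2 and 3 and KO replicate 1 together, 8 of the 10 genes did not overlap, 7 lower and 1 higher in KO cells, as did 61.6% of all loci, since only 2 KO libraries and 1 WT library remain. Of 130 further values of single genes, 125 moved by less than the spread between replicates and 5 by more. Those were Abi3bp at -2.16 in limma on log2(FPKM + 1), Sparc at -0.37 without WT replicate 2, and Abi3bp at -2.50, Sparc at -0.35 and Nov at 1.16 without the 3 libraries. No paired analysis was possible because the labels give no replicate numbers and those used here follow the order of deposit. Counts limit Abi3bp most, since its KO values rest on at most 42 fragments a library.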
